A study of Mus musculus with 5 samples.

Results

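Fn1 encodes fibronectin, a secreted glycoprotein that cells assemble into fibrils on their surface and bind through integrins. In breast tumors, basal epithelial cells, which carry the keratins Krt5, Krt14 and Krt17, are often found at the border between the tumor and its matrix. The wells described here are single basal cells of MMTV-PyMT organoids kept in Collagen I, split by their Fn1 transcripts into an Fn1-high and an Fn1-low group. They are 119 wells (74 Fn1-high and 45 Fn1-low) of 158 basal wells, out of 445 Collagen I wells that passed the filters and 768 wells sorted. Across all 5 plates of the series, 75 Fn1-high and 291 Fn1-low basal wells were found.

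MMTV-PyMT organoids come from mammary tumors of mice in which the MMTV promoter drives the polyoma middle T oncogene in mammary epithelium. All organoids were expanded in BME, a basement membrane extract, and then embedded for 5 days in BME or in Collagen I, with the same medium for both. Live single cells were sorted into 384-well plates and counted by SORT-seq, which tags each RNA molecule at its 3' end with a unique molecular identifier. The Fn1-high and Fn1-low groups on each of 2 plates, replicates 1 and 3 in Collagen I, give 4 sums of wells. Nothing in the labels says that the plates came from separate cultures. With the plate as a block, the p-values set the group difference against its variation between these plates. That variation is estimated with a spread shared across genes and may be technical.

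A well was basal when Krt5, Krt14 and Krt17 together reached at least 5 per 10000 counts of the well. Basal wells with Fn1 of at least 15 per 10000 were Fn1-high and those with at most 5 were Fn1-low. The wells were thus selected on the measured values of these 4 genes, and their levels are a description and carry no test. Replicate 1 held 30 Fn1-high, 15 intermediate and 28 Fn1-low wells, and replicate 3 held 44, 24 and 17. The lowest Fn1-high well had 16.5 per 10000 in replicate 1 and 15.2 in replicate 3, and the highest intermediate wells had 14.3 and 14.4. The highest Fn1-low wells had 4.76 and 4.84, and the lowest intermediate wells 6.32 and 5.26. For the keratin sum, the lowest basal wells had 5.11 and 5.63 per 10000, and the highest non-basal wells 4.90 and 4.91. The wells just inside and just outside each threshold thus had close values.

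**Figure D1:**
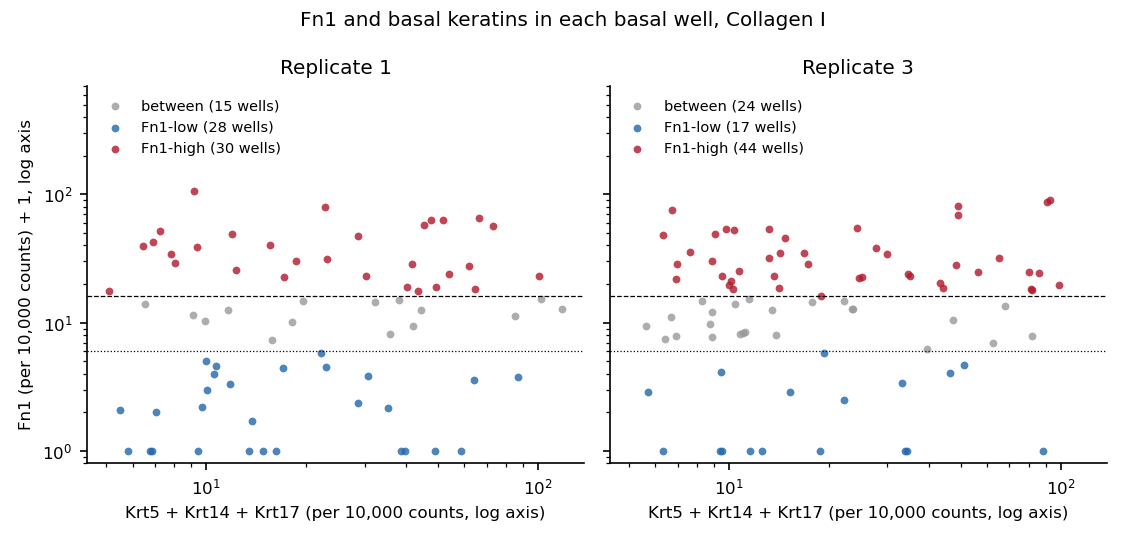
Fn1 per 10000 counts (plus 1, log axis) against the summed basal keratins per 10000 counts (log axis) in every basal well of each Collagen I plate. Each point is a well, the dashed and dotted lines mark the thresholds of 15 and 5, and the Fn1-low wells at the bottom have no Fn1 count.

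The median Fn1 level was 31.8 per 10000 in the Fn1-high wells of replicate 1 and 27.5 in those of replicate 3. In Fn1-low wells the medians were 1.14 and 0. Of the Fn1-low wells, 11 in replicate 1 and 9 in replicate 3 had no Fn1 count, so at this depth a low value often rests on an absence of reads. In the sums, Fn1 stood at 3837 and 3662 CPM (a gene's share of the summed counts, scaled to 1000000) in Fn1-high wells and at 148 and 140 CPM in Fn1-low wells. Krt5, which was also part of the rule, was at 1750 and 1349 CPM in Fn1-high and 706 and 943 CPM in Fn1-low wells. Krt14 was at 689 and 1310 CPM against 643 and 944 CPM, and Krt17 was at 757 and 879 CPM against 540 and 402 CPM. The basal label therefore rests on the same keratins that the rule used. Of the other basal markers, Trp63, the transcription factor of basal epithelium, was counted in 6 and 11 Fn1-high and 8 and 6 Fn1-low wells, and the myoepithelial gene Myh11 was at 0 in all 4 sums. Krt8 and Krt18, keratins of luminal epithelium, were present in both groups.

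In BME, 257 basal wells on 3 plates held 1 Fn1-high well, against 74 of 158 in Collagen I. Non-basal wells differed between the matrices in the same direction. They were 30 Fn1-high, 71 intermediate and 452 Fn1-low wells in BME, and 133, 71 and 83 in Collagen I. Fn1 over all basal wells was 76.9, 95.9 and 194 CPM on the BME plates, and 1752 and 2306 CPM on the Collagen I plates. The split of basal wells therefore could not be compared in BME. The plates also differed in depth, with 8287650, 8097680 and 9167800 counts kept in BME and 1560660 and 946515 in Collagen I. ERCC spike-in RNA took 2.36%, 2.68% and 2.31% of the BME counts, against 8.18% and 8.07% in Collagen I. No plate held both matrices, so the part of the plates in the Fn1 difference between matrices was not tested.

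The Fn1-high wells summed to 162703 counts in replicate 1 and 178223 in replicate 3, and the Fn1-low wells to 175857 and 57268. The replicate 3 Fn1-low sum is the shallowest, and 3 counts there equal 52.4 CPM. Median counts per well were 4985 and 3387 for Fn1-high and 5422 and 2948 for Fn1-low wells. All genes encoded on chromosome M took 6.65% and 7.82% of the Fn1-high sums and 9.90% and 10.9% of the Fn1-low sums. The median share of ERCC spike-in RNA was 1.24% and 1.85% in Fn1-high and 1.34% and 2.69% in Fn1-low wells, so both measures were higher in Fn1-low wells of either plate. Their part in the results below was not tested beyond the settings given with the processing.

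Of 3089 genes tested with edgeR, 56 (1.81%) differed between Fn1-high and Fn1-low basal wells at an adjusted p under 0.05. Of these, 39 (1.26%) were higher and 17 (0.55%) lower in Fn1-high wells. Secreted matrix proteins, cytoskeletal genes and the luminal keratins were among the higher genes, and Igfbp5 and mitochondrially encoded genes among the lower ones. All 56 moved the same way in both plates, and their groups did not overlap. Among all genes tested, groups did not overlap for 39.9% (22.6% higher, 17.4% lower). At an unadjusted p under 0.05, 396 genes differed. The count changed with the wells kept and with the tool. Without the deepest well of each plate and group it fell to 13 genes, all among the 56, and among wells under the median chromosome M share of their plate, which kept 4 Fn1-low wells in replicate 3, it was 4. It was also 13 without the plate as a block, 15 with DESeq2 and 0 with Fn1 thresholds of 25 and 0. Other settings raised it. Without the top 5% of wells by counts, 72 genes were higher and 42 lower, and with a keratin sum of at least 10, 80 and 38.

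Promoter sequence was read for the called genes that had a RefSeq window, 34 of the 39 higher and 9 of the 17 lower ones. The 250 bases before each start were searched on both strands for GGAATG, the core letters bound by TEAD factors, the partners of YAP, and for TGANTCA, the letters of AP-1 sites. GGAATG was found for 5 of 34 higher genes and 1 of 9 lower genes, against 12.2% of all genes tested. TGANTCA was found for 5 of 34 and 1 of 9, against 5.36%. A match is a run of letters and not a bound site. Tagln2 holds GGAATG on the opposite strand, and Igfbp5 does too, although Tagln2 was higher and Igfbp5 lower in Fn1-high wells, while Gja1 and Mmp13 hold TGANTCA. These 4 windows are shown because the 4 genes are described further on, with the matched letters in capitals, 5' to 3' on the strand of the gene (GRCm38.p6; Gja1 chr10:56377050-56377299 and Mmp13 chr9:7272264-7272513 and Tagln2 chr1:172499996-172500245 on the plus strand, Igfbp5 chr1:72874866-72875115 on the minus strand).
Gja1: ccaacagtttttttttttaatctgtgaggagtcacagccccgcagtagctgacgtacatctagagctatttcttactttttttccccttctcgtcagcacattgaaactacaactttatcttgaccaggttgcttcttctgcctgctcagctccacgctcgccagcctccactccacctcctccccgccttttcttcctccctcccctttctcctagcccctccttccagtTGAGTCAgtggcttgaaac
Mmp13: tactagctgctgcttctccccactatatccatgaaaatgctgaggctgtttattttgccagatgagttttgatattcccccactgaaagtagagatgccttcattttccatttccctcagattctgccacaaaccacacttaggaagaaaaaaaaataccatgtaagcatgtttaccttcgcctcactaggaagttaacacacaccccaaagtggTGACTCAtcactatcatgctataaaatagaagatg
Tagln2: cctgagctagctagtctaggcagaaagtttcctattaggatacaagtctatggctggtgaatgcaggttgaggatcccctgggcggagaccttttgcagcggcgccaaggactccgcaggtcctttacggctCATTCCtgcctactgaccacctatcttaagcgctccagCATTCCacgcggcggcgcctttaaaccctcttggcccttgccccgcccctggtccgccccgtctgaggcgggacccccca
Igfbp5: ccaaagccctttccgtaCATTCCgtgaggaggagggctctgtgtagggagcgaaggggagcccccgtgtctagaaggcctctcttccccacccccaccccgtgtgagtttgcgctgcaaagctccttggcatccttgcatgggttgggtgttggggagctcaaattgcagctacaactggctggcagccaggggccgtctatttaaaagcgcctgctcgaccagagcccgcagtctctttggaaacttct

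Matrix glycoproteins gave 4 higher and 0 lower of 17 tested members, with a median log2 fold change of 0.23 against -0.02 over all genes tested. Over all genes tested, 1.26% were called higher and 0.55% lower, and these shares apply to each list below. Tnc encodes tenascin-C, a glycoprotein of remodelled tumor matrix that binds fibronectin, and lies at chr4:63959785-64047015 of mm10. It stood at 1608 and 1206 CPM in the Fn1-high sums and at 210 and 297 CPM in the Fn1-low sums. The groups lay far apart in both plates, with a log2 fold change of 2.54 ± 0.26 (SE, n = 2 plates; edgeR adjusted p = 0.000148). It was called in 19 of 20 alternative settings. The counts came from 25 and 25 Fn1-high wells and 10 and 7 Fn1-low wells.

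Spp1, which encodes osteopontin, an integrin-binding phosphoprotein, was at 991 and 2276 CPM in Fn1-high and 324 and 594 CPM in Fn1-low wells. Its log2 fold change was 1.71 ± 0.22 (SE; edgeR adjusted p = 0.000947), and replicate 3 stood above replicate 1 in both groups. Tgfbi, a collagen- and integrin-binding protein induced by TGF-beta, was at 246 and 197 CPM against 11.4 and 52.4 CPM (log2 fold change 3.27, edgeR adjusted p = 0.00625). Ecm1, a secreted matrix protein, was at 135 and 118 CPM against 11.4 and 17.5 CPM (log2 fold change 3.19, edgeR adjusted p = 0.0305). The low groups of both genes rest on few counts. In the Fn1-high sums of replicates 1 and 3, 1 well gave 70.1% and 37.2% of the Tgfbi counts. For Ecm1 these shares were 31.8% and 38.1%.

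Among 11 tested collagen chains, 1 was higher and 0 lower, with a median of 0.10. That chain was Col8a1, a short-chain network collagen, at 560 and 258 CPM in Fn1-high and 131 and 122 CPM in Fn1-low wells (log2 fold change 1.77 ± 0.32, SE; edgeR adjusted p = 0.0131). Col18a1, the collagen of basement membranes that is cut to endostatin, stood at 1157 and 634 CPM against 1064 and 786 CPM, and did not pass the test (log2 fold change -0.10, adjusted p = 0.908). Laminins and the hemidesmosome gave no call among 15 genes, with a median of 0.54. Lama3, a chain of laminin-332, was nearest, at 393 and 354 CPM against 165 and 175 CPM (adjusted p = 0.0714). Crosslinking enzymes gave none of 7, with a median of 0.20, and Loxl3, a lysyl oxidase, was at 406 and 241 CPM against 307 and 175 CPM.

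Receptors for fibronectin and other matrix proteins gave 2 higher and 0 lower of 8 tested, with a median of 0.30. Of all genes tested, 1.26% were higher. Itgb1, the beta 1 integrin chain that pairs with the alpha 5 chain to bind fibronectin, was at 996 and 820 CPM in Fn1-high and 575 and 279 CPM in Fn1-low wells, a log2 fold change of 0.99 ± 0.24 (SE) with an edgeR adjusted p of 0.0491. Cd44, the hyaluronan receptor, was at 978 and 983 CPM against 461 and 437 CPM (log2 fold change 1.06, edgeR adjusted p = 0.0259). The Itgb1 call lies at the threshold and was kept in 10 of 20 settings, and that of Cd44 in 13.

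Proteases and their inhibitors gave 1 higher and 0 lower of 12 tested, with a median of 0.30. Mmp13, the collagenase-3 gene, had 44.2 and 11 counts in the Fn1-high sums and none in either Fn1-low sum. Against a floor of 3 counts per sum it was at least 15.9-fold higher in replicate 1 and at least 1.18-fold higher in replicate 3. The counts sat in 2 and 4 wells, and 1 well gave 93.2% of those in replicate 1. Hmga2, a chromatin protein of embryonic and invasive cells, was likewise at 0 in both Fn1-low sums and had 17 and 15 counts in the Fn1-high sums, at least 6.12-fold and 1.61-fold higher.

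The cytoskeletal list gave 3 higher and 0 lower of 34 tested, against 1.26% higher over all genes tested. Its median was 0.42, and 31 were not called. Of the 34, 28 had a positive fold change, against 47.9% of all genes tested. Tagln2, an actin-bundling protein, stood at 1366 and 1293 CPM in Fn1-high and 370 and 419 CPM in Fn1-low wells. The plates gave close values in each group, and the log2 fold change was 1.73 ± 0.22 (SE; edgeR adjusted p = 0.000947). Tpm2, a tropomyosin, was at 240 and 118 CPM against 45.5 and 34.9 CPM (log2 fold change 2.18, edgeR adjusted p = 0.0298), and Cotl1, an F-actin-binding protein, was at 443 and 342 CPM against 171 and 122 CPM (log2 fold change 1.35, edgeR adjusted p = 0.0311). Myh9, the heavy chain of non-muscle myosin IIA, was at 664 and 634 CPM against 381 and 297 CPM (adjusted p = 0.0913), and Tpm4 at 923 and 797 CPM against 540 and 419 CPM (adjusted p = 0.0982). Neither passed. The other tropomyosins had a log2 fold change of 0.28 for Tpm1 and 0.16 for Tpm3, neither of which passed. Vim, the intermediate filament of mesenchymal and many basal cells, was the 1 called gene among 10 EMT factors and adhesion genes, at 1175 and 949 CPM against 432 and 402 CPM (log2 fold change 1.31 ± 0.22, SE; edgeR adjusted p = 0.00625). Snai2 and Cdh2 had log2 fold changes of 0.26 and 0.30 and were not called, and Twist1 had too few counts to be tested.

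**Figure D2:**
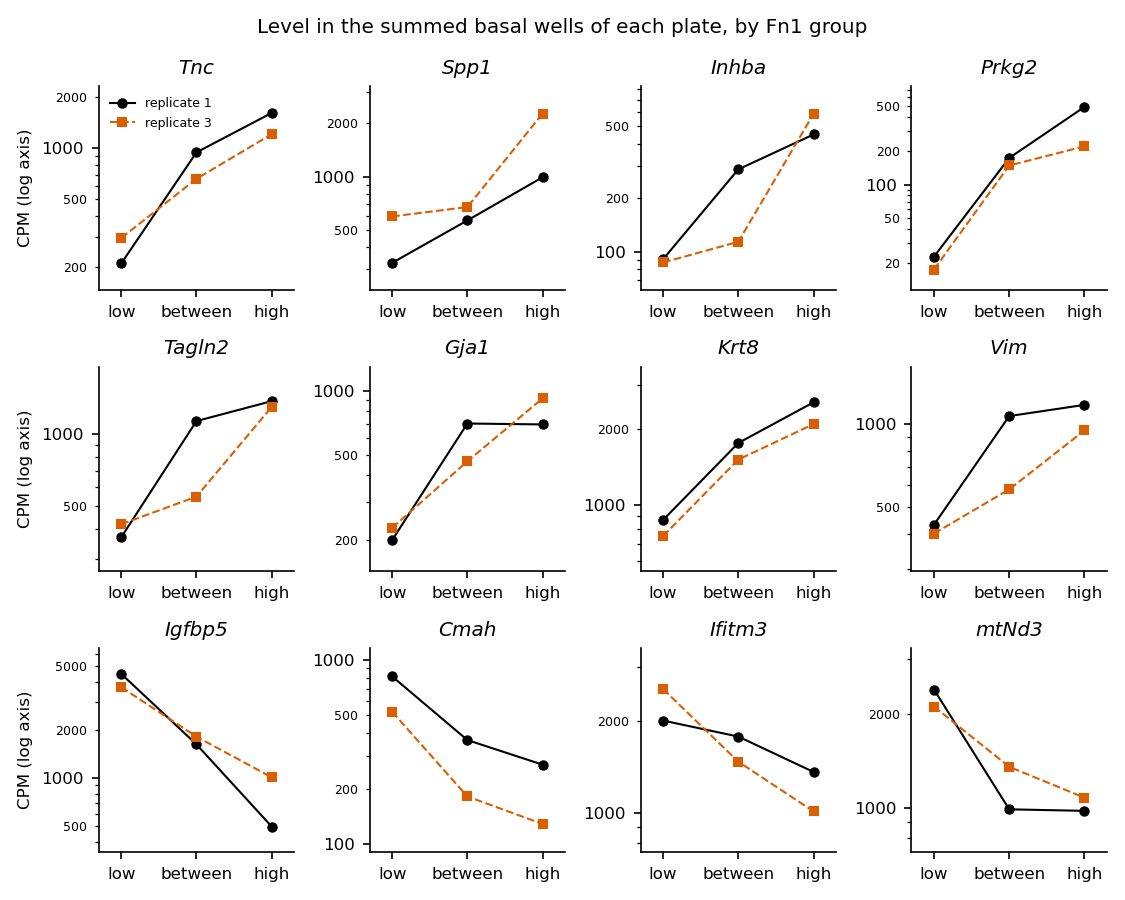
CPM (log axis) of 12 genes in the summed Fn1-low, intermediate and Fn1-high basal wells of replicate 1 (circles) and replicate 3 (squares); each panel has its own axis. Both plates changed in the same direction from Fn1-low to Fn1-high wells for each gene, from 210 and 297 to 1608 and 1206 CPM for Tnc and from 4486 and 3705 to 498 and 1012 CPM for Igfbp5.

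The intermediate wells took no part in the test. Their level lay between those of the Fn1-low and Fn1-high sums in both plates for 32 of the 39 higher and 10 of the 17 lower genes, against 13.2% of all genes tested. Called genes have groups that lie apart, which leaves more room for a value in between. Tnc, for example, stood at 944 and 661 CPM in intermediate wells.

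Inhba, whose product forms activin A, was the 1 called gene among 14 of the activin and TGF-beta pathway, at 449 and 584 CPM in Fn1-high and 91 and 87.3 CPM in Fn1-low wells (log2 fold change 2.38 ± 0.31, SE; edgeR adjusted p = 0.000985). Of the Inhba counts in the Fn1-high sums, 1 well gave 41.2% in replicate 1 and 30.8% in replicate 3. Inhbb and the inhibitor Fst were not called. The 10 tested YAP/TEAD targets gave no call, with a median of 0.28. Myof, a membrane-repair ferlin, was nearest at 283 and 269 CPM against 79.6 and 140 CPM (adjusted p = 0.0509). Ctgf, a widely used YAP target, was at 141 and 146 CPM against 199 and 227 CPM, a log2 fold change of -0.60 that did not pass (adjusted p = 0.463). The receptor kinase Axl (log2 fold change 1.15, adjusted p = 0.0855) and the ectonucleotidase Nt5e (2.01, adjusted p = 0.125) were not called either. The paper names Tnc, Col8a1, Loxl3 and Plau among genes under Yap control, and the list used here holds none of them. Of these genes, Tnc and Col8a1 were called higher in Fn1-high wells. Loxl3 and Plau had log2 fold changes of 0.37 and 1.11 and were not called. Jag1, a Notch ligand, was at 197 and 292 CPM against 91 and 87.3 CPM (adjusted p = 0.0884), and no gene of 4 tested in the Notch list was called. Prkg2, a cGMP-dependent protein kinase, was at 492 and 219 CPM against 22.7 and 17.5 CPM (log2 fold change 4.19 ± 0.44, SE; edgeR adjusted p = 0.000148). Its low groups held counts in 4 wells and 1 well.

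Gja1, the gap junction protein connexin 43, was at 695 and 921 CPM in Fn1-high and 199 and 227 CPM in Fn1-low wells (log2 fold change 1.83 ± 0.25, SE; edgeR adjusted p = 0.00122). Among 1445 genes counted in at least 30% of the basal wells of each plate, Gja1 had the highest mean over the 2 plates of Spearman's rho with Fn1, at 0.45 over 73 basal wells of replicate 1 and 0.50 over 85 of replicate 3. In replicate 1 alone Krt8 stood above it, at 0.48. Krt8, Myadm, Cd44 and Tagln2 followed, with mean rho of 0.38, 0.37, 0.36 and 0.36. Wells of a plate share a library and differ in depth, so these values are a description. The luminal list gave 2 higher and 0 lower of 8 tested, against 1.26% higher over all genes tested. Its median was 0.86, with 6 positive fold changes. Foxa1 and Lcn2 had negative log2 fold changes, of -1.27 and -0.197, and were not called. Krt8 stood at 2558 and 2095 CPM against 871 and 751 CPM (log2 fold change 1.47 ± 0.20, SE; edgeR adjusted p = 0.00106), and its partner Krt18 at 1034 and 916 CPM against 427 and 507 CPM (log2 fold change 1.05, edgeR adjusted p = 0.0311). Elf5, Ltf and Aldh1a3, luminal progenitor genes, were at 0 in all 4 sums. Of 6 basal markers outside the rule none was called, with a median of -0.26. Their log2 fold changes were -0.79 for Krt15, -0.59 for Trp63, -0.39 for Itga6, -0.14 for Cdh3, 0.10 for Col17a1 and 0.78 for Itgb4, which lie on both sides of 0. Krt15 had no count in either replicate 1 sum, so its value rests on replicate 3.

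Several other genes higher in Fn1-high wells had few counts. Tnfrsf9, Prss22, Akr1b8, Tubb2a and Smox had log2 fold changes of 4.16, 3.45, 2.78, 2.12 and 2.01, with edgeR adjusted p between 0.0137 and 0.0462. Myadm, a membrane protein, was at 621 and 589 CPM against 267 and 175 CPM. A further 15 higher genes fall outside the rule for naming genes and are named after their values were seen. They are Ahnak, Anxa1, Anxa2, Cav1, Cx3cl1, Dpy19l1, Isg20, Lgals1, Lgals3, Lmna, Pkp1, Pla2g7, Smtn, Tmsb4x and Tuba1a, with log2 fold changes from 0.85 (Anxa1) to 1.68 (Isg20).

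Igfbp5, a secreted protein that binds insulin-like growth factors, was the most abundant gene lower in Fn1-high wells outside the mitochondrial genome. It stood at 498 and 1012 CPM in Fn1-high and 4486 and 3705 CPM in Fn1-low wells, with 1626 and 1816 CPM in intermediate wells. Its log2 fold change was -2.56 ± 0.26 (SE; edgeR adjusted p = 0.000148), and it was called in 19 of 20 alternative settings. In the Fn1-low sums of replicates 1 and 3, 1 well gave 16.7% and 39.5% of the Igfbp5 counts. Igfbp4, a related binding protein, was at 271 and 281 CPM against 564 and 524 CPM (log2 fold change -1.04, edgeR adjusted p = 0.0402), but was called in 8 of 20, and its fold change was 0.020 among wells under the median chromosome M share. Cmah, the enzyme that makes the sialic acid Neu5Gc, was at 271 and 129 CPM against 814 and 524 CPM (log2 fold change -1.79 ± 0.25, SE; edgeR adjusted p = 0.00134). In its Fn1-high sums 1 well gave 45.5% and 39.2% of the counts, and in its Fn1-low sums 17.5% and 23.4%.

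The interferon-induced gene Ifitm3 was at 1360 and 1011 CPM in Fn1-high and 2001 and 2536 CPM in Fn1-low wells (log2 fold change -0.97, edgeR adjusted p = 0.0345). Hp, which encodes the acute-phase protein haptoglobin, had the most negative fold change, -2.71, on levels of 6.15 and 39.3 CPM against 73.9 and 210 CPM (edgeR adjusted p = 0.0407). Hmgn2, Prdx2, Lgals9, Fam101b, Marcksl1 and Atp5h had log2 fold changes between -1.60 and -0.97.

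Of 14 tested mitochondrially encoded genes, 6 were lower and 0 higher, against 0.55% lower over all genes tested. Their median was -0.80, and none had a positive fold change. mtNd3, a subunit of respiratory complex I, was at 979 and 1079 CPM against 2398 and 2116 CPM (log2 fold change -1.20, edgeR adjusted p = 0.00497). The others were mtNd4, mtCytb and mtAtp6, and mtCo3 and mtNd2, which fall outside the rule and are named after their values were seen. Among wells under the median chromosome M share of their plate none of the 6 was called, 5 kept a negative fold change, from -0.72 (mtNd3) to -0.19 (mtCytb), and mtNd2 turned to 0.52 (adjusted p = 0.791). That setting chose wells on the summed counts of these same genes and kept 4 Fn1-low wells in replicate 3. It therefore cannot decide whether the genes differ between the groups. Without chromosome M genes, 60 genes were called, 50 of them among the 56. Ribosomal protein genes gave no call among 68, with a median of -0.28 and 2 positive fold changes, against 47.9% positive over all genes tested. The log2 fold change was -0.10 for Rpl3, -0.32 for Rpl4 and -0.19 for Rpl5. In the hypoxia and glycolysis list 25 of 26 fold changes were positive, with a median of 0.39 and no call. Bnip3 and Pfkp, a mitophagy receptor and a phosphofructokinase, had adjusted p of 0.0527 each.

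**Figure D3:**
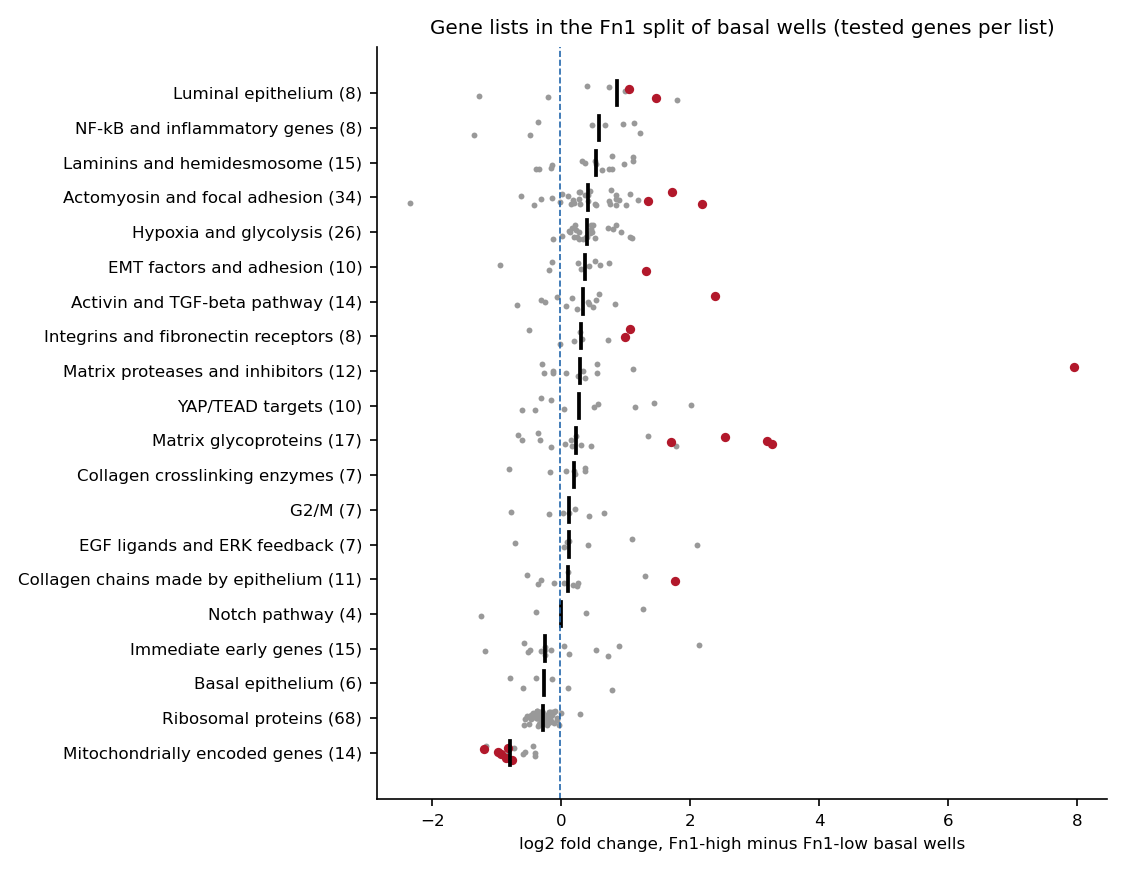
Log2 fold change between Fn1-high and Fn1-low basal wells (horizontal axis) of every tested gene in the 20 lists with at least 4 tested genes. Red points passed the edgeR test, grey points did not, black bars are list medians, and the dashed line is the median of all genes tested (-0.02).

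Counts of G2/M genes were found in both groups. Wells with a G2/M sum of at least 10 per 10000 made up 53.3% and 40.9% of the Fn1-high wells and 57.1% and 52.9% of the Fn1-low wells. That cut lies near the median G2/M sum of the groups. Aurkb, Plk1, Bub1b and Nusap1 had no count in either replicate 3 sum, whereas Aurkb, Plk1, Ccnb1 and Cdk1 were counted in both replicate 1 sums. The percentages therefore cannot tell how many wells were cycling. None of 7 tested G2/M genes was called, and Pcna, a DNA replication clamp and the 1 tested S phase gene, had a log2 fold change of -0.07. Cdk4, the G1 kinase, was at 215 and 230 CPM against 415 and 332 CPM and did not pass (adjusted p = 0.164). Immediate early genes, NF-kB genes and EGF ligands with ERK feedback genes gave no calls among 15, 8 and 7, with medians of -0.25, 0.58 and 0.12.

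Markers of other cell types were sparse. The 12 fibroblast markers summed to 166 and 629 CPM in Fn1-high and 119 and 349 CPM in Fn1-low wells, with Lum, Dpt and Fap at 0 in all 4 sums. None of the 3 that could be tested was called. At least 2 of the markers were counted in 1 and 6 Fn1-high and in 6 and 3 Fn1-low wells. Without those wells 62 genes were called, 45 of them among the 56. The 6 macrophage markers in the files reached at most 17.1 CPM, with Csf1r, Lyz2, Cd74 and Mrc1 at 0. Endothelial markers reached at most 36.9 CPM, with Pecam1, Cdh5 and Kdr at 0. Pericyte markers reached at most 122 CPM with Pdgfrb at 0, and lymphocyte markers at most 6.15 CPM.

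The same Fn1 thresholds were set on non-basal wells of the same plates, 78 and 55 Fn1-high and 43 and 40 Fn1-low wells. There 947 of 5153 genes (18.4%) were called, 501 higher (9.72%) and 446 lower (8.66%) in Fn1-high wells, on sums of 216318 to 500366 counts, which are deeper than the basal ones, so the counts of calls are not comparable. Of the 31 genes higher in basal wells that could be fitted in non-basal wells, 30 had a positive fold change there, and of 17 lower genes 16 had a negative one. Over all 2978 genes fitted in both, 61.7% had the same sign. The difference between basal and non-basal wells was itself tested and passed for 47 of 4386 genes (1.07%) with edgeR, 24 with a larger fold change in basal wells (0.547%) and 23 with a smaller one (0.524%), and for 1 gene with DESeq2.

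Tagln2 differed by 1.65 ± 0.27 (log2, SE; edgeR adjusted p = 1.37e-06) and stood at 308 and 266 CPM in Fn1-high and 260 and 273 CPM in Fn1-low non-basal wells. Igfbp5 fell more in basal wells, by 1.47 on the log2 scale (edgeR adjusted p = 3.53e-09), with 1157 and 1116 CPM in Fn1-high and 2903 and 1780 CPM in Fn1-low non-basal wells. Spp1 rose less in basal wells, with a difference of -2.61 (edgeR adjusted p = 1.73e-17). In non-basal wells it stood at 2541 and 3396 CPM against 76.4 and 245 CPM, a log2 fold change of 4.44. Col18a1, which was not called in basal wells, had a log2 fold change of 1.26 in non-basal wells, and the difference of -1.24 passed (edgeR adjusted p = 0.000929). For Tnc, Krt8 and Gja1 the differences of 0.48, 0.55 and 0.14 did not pass, with adjusted p of 0.837, 0.272 and 0.927.

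**Figure D4:**
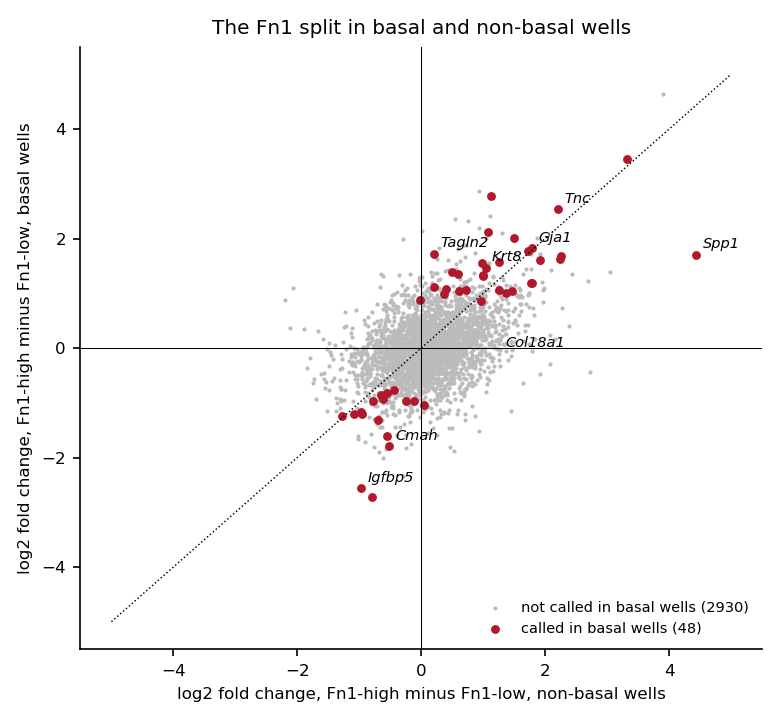
Log2 fold change between Fn1-high and Fn1-low wells in basal wells (vertical axis) against non-basal wells (horizontal axis) for 2978 genes fitted in both. Red points are the 48 genes called in basal wells, the dotted line marks equal change, and Spp1 lies far below it at 1.71 against 4.44; the grey point at the top right is Fn1, which chose the wells.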

How the data were processed

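The authors deposited 1 table of expected counts per plate: transcripts per gene and well, estimated from distinct UMIs with a correction for UMI saturation. Per the labels, libraries followed CEL-Seq2, and the submitters' processing notes name BWA and mm10, with versions not given in the sources used here. ERCC rows, 8.07% to 8.18% of the Collagen I counts, were dropped, and wells with over 2000 counts and under 8000 genes were kept. Counts were summed per plate and group, rounded, filtered with filterByExpr, scaled by TMM and tested with edgeR 4.0.16 (quasi-likelihood, plate as a block, Benjamini-Hochberg over all genes tested, R 4.3.3). The 4 sums leave 1 residual degree of freedom, and the spread is shared across genes. An exact paired permutation test over 2 plates cannot give a p below 0.5, so none is given for single genes. Pairing comes from the plate: both groups were sorted and sequenced on it. The plate differences of the groups correlated with r = 0.153 over 3093 genes. The difference between basal and non-basal wells was tested as an interaction with plate within class as the block. The scripts were tested on simulated data.

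The wells, the 26 gene lists and the alternatives were chosen with earlier results of these data known. Named genes are the 4 genes of the rule, genes that the study names, the 15 largest changes in each direction (adjusted p under 0.05, same direction in both plates, at least 50 CPM in one group), up to 4 genes per list by p, the 5 smallest p for the class difference and the 5 genes most like Fn1. The remaining 17 called genes were added after their values were seen. Positions are from GENCODE vM21 on GRCm38 (mm10), and promoter windows from RefSeq on GRCm38.p6. Genes with near-identical copies, such as ribosomal protein and tubulin genes, can share reads. Both plates use the same 384 well barcodes, and 10 well numbers hold a member in both. Alternatives were DESeq2 1.42.0, limma-voom (limma 3.58.1), other scalings, filters and thresholds. No doublet caller was run; leaving out the top 5% of wells by counts was tried instead.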

Additional observations from a re-analysis of the deposited data

Results flagged for a closer look

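The effect of the Fn1 split differed between basal and non-basal wells of the same plates, by the edgeR interaction test, for the 5 genes with the smallest p (adjusted p from 1.73e-17 to 1.37e-06). Differences are the interaction term of a joint fit of both classes, on the log2 scale, basal minus non-basal. The fold changes come from a separate fit in each class, so they do not subtract exactly to the difference. Spp1 differed by -2.61, with fold changes of 1.71 and 4.44, both positive. Igfbp5 differed by -1.47, with fold changes of -2.56 and -0.97. Tagln2 differed by 1.65, with fold changes of 1.73 and 0.21.

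Krt2, a keratin of cornifying epithelium, differed by 7.12, and Sprr1a, a precursor of the cornified envelope, by 11.4. Both were at 0 in the basal sums of replicate 1. In replicate 3, Krt2 was counted in 5 and Sprr1a in 4 Fn1-high basal wells, and 1 well gave 89.1% of the Krt2 counts and most of the Sprr1a counts. In non-basal wells both were at 0 in replicate 1. In replicate 3, Krt2 stood at 3.97 CPM in Fn1-high and 130 CPM in Fn1-low non-basal wells, and Sprr1a at 3.97 and 246 CPM, with the Fn1-low counts in 3 and 2 wells. Both differences therefore rest on few wells of 1 plate in either class.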

How the results depend on the processing

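With 4 sums, p-values rest on a spread shared across genes. The Fn1-low sum of replicate 3 held 57268 counts, so genes under 52.4 CPM there are at or under 3 counts. No called gene was called under every setting. Of the 56 called genes, 12 were called in at least 15 of up to 20 settings. Leaving out a plate leaves no residual degrees of freedom, so it gives a fold change per gene and no count of calls; no called gene changed sign. The same split of basal wells in BME was not run, since 0 of 3 BME plates held 5 basal wells in each group. Library size only moved the median of all genes tested from -0.02 to 0.02.

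Against 56 genes called (39 higher, 17 lower), these settings changed the count. Without the replicate block it was 13 (11 higher, 2 lower), with DESeq2 15 (7 and 8), with library size only 106 (81 higher), and with no filter on low counts 115 (94 higher). Limma-voom called 34 lower. Thinning the grouped wells to 2000 counts gave 31 (18 higher), and thinning before the rule gave 10 lower. Thresholds of 25 and 0 gave 0 by edgeR (0 higher, 0 lower), with 167 genes at an unadjusted p under 0.05; the other tools were not run at these thresholds. Taking all wells under 15 as Fn1-low gave 31 (23 and 8). Wells with under 10% of counts from mt- genes gave 124 (84 and 40), and a keratin sum of at least 10 gave 118 (80 and 38). Leaving out cycling wells gave 17 (9 and 8), and leaving out the top 5% of wells by counts 114 (72 and 42). Chosen after seeing the data, wells under the median chromosome M share gave 4 (2 and 2), and leaving out the deepest well of each plate and group gave 13 (10 and 3). The cause of these changes was not tested. Under the chromosome M setting, Igfbp4 reversed to a log2 fold change of 0.020 (adjusted p = 0.992) and mtNd2 to 0.52 (adjusted p = 0.791). The counts of mtNd2 are part of the share that chose these wells.

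For the difference between basal and non-basal wells, edgeR called 47 genes (24 higher, 23 lower). Without the replicate block it called 4 (3 and 1). DESeq2 called 1 (0 higher, 1 lower). No filter on low counts gave 24 (14 and 10), and more than 4000 counts per well 24 (13 and 11). Thinning the grouped wells gave 2 (1 and 1), and thresholds of 25 and 0 gave 2 (1 and 1). Without wells with fibroblast markers 13 were higher. Chosen after seeing the data, leaving out the deepest wells gave 24 (10 and 14), and plate as a replicate block in place of plate within class gave 23 (13 and 10).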
